A study of Homo sapiens with 54 samples.

Results

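Cell cycle genes were followed here as 43 genes, 15 that act in S phase and 28 that act in mitosis, among the 60676 genes measured in every library. The members were taken by gene symbol, with no threshold on their level, and all 43 were found in each of the 53 libraries. RNA-seq had been made from hMSN-like cells, cells of the striatal medium spiny neuron type that were differentiated with activin A from day 9 from H9, an established human embryonic stem cell line. The 53 libraries fall into 18 conditions of 4 experiments, with 3 libraries per condition, except that 5 Day had 2 (replicate 1 of 5 Day was not analysed here).

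In the 1 mM and the 1 µM dopamine experiments, PBS libraries were the control, Acute 1 h and Acute 24 h followed a lone dose, and Chronic 1 h and Chronic 24 h followed daily doses over 5 days, with RNA taken either 1 h or 24 h later than the final dose. In the time course, cultures received 1 mM dopamine daily for 2, 3, 4 or 5 days, were taken 1 h after the last dose and were compared with ascorbic acid, the vehicle of dopamine. In the agonist experiment, SKF82958, which activates D1-like dopamine receptors, and quinpirole, which activates D2-like receptors, each at 50 µM, were compared with water. Acute and agonist cultures were dosed on day 45 in vitro, whereas daily dosing ended on day 50. The culture day of the PBS libraries, which are the control of both, was not given in the sources used here. Culture age and dosing therefore cannot be told apart between Acute and Chronic. Nor can they be told apart between Acute or Chronic and PBS. Dopamine was dissolved in ascorbic acid in every experiment, whereas the controls of the dose experiments are labelled PBS, so at each dose the effects of dopamine and of its solvent cannot be told apart. The H9 line is a single donor genome, differentiated cultures of this kind hold several cell types, and the labels do not say whether replicates came from separate differentiations, so p-values measure only the spread between these libraries.

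A dividing cell copies its DNA in S phase and separates the copies in mitosis. The genes for S phase (the MCM helicase that unwinds DNA, PCNA that clamps the polymerase, and RRM2 and TYMS that make DNA building blocks) are switched on by E2F factors as cells leave G1, the phase before DNA is copied. The genes for mitosis (cyclins A and B with the kinase CDK1, the Aurora and Polo kinases, motor proteins and checkpoint proteins) are switched on later, by the MuvB complex with MYBL2 (B-Myb) and FOXM1, and are held off before S phase by the DREAM complex, a repressor that shares the MuvB core. A short element called CHR near their start sites binds MuvB, and CCAAT boxes there bind the activator NF-Y. Neurons have left the cell cycle, so in a neuronal culture these transcripts are mainly known from progenitors that still divide. The bulk libraries do not show which cells held them.

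Promoters were examined because most members of a list had 1 direction in several comparisons below. RefSeq promoters (GRCh38.p14, 250 bases before to 50 after the start) were given for 12 of the 15 S phase genes and 22 of the 28 mitosis genes. The letters searched on both strands were CCAAT for the CCAAT box, TTTGAA or TTCGAA for CHR, and TTTGGCG or TTTCCCG or TTTCGCG or TTTGCCG for E2F. Among mitosis genes, 20 promoters (90.9%) held a CCAAT box, 16 (72.7%) a CHR and 5 (22.7%) an E2F motif. Among S phase genes, 8 (66.7%) held a CCAAT box, 1 (8.33%) a CHR and 10 (83.3%) an E2F motif. Of all 27305 promoters, 35.7% held a CCAAT box, 16.6% a CHR and 8.69% an E2F motif. A CCAAT box together with a CHR was present in 15 mitosis promoters (68.2%), 1 S phase promoter (8.33%) and 6.58% of all promoters. CCNE2, MCM4, MCM5, AURKA, TTK, TPX2, BIRC5, UBE2C and FOXM1 had no entry. A match describes the letters only and is not evidence of a bound factor.

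The 130 bases directly before the start are shown 5′ to 3′ for 3 S phase genes that rose in at least 1 comparison below, chosen because the promoter of each holds the E2F letters and a CCAAT box. The only CCAAT match of GINS2, at position -158 from the start, lies outside the bases shown. Capitals mark matches to the searched motifs on either strand. The windows are chr20:5126623-5126752 (minus strand) for PCNA, chr16:85688955-85689084 (minus strand) for GINS2 and chr17:40287749-40287878 (plus strand) for CDC6.
PCNA: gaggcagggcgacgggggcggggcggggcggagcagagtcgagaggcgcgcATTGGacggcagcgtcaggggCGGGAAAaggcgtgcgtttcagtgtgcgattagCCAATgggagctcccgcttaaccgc
GINS2: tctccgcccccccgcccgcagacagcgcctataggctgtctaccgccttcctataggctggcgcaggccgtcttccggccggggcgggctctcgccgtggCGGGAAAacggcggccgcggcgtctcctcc
CDC6: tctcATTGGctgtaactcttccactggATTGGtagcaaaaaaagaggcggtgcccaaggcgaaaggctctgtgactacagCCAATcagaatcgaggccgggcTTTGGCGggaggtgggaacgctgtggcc

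The same window is shown for 5 mitosis genes that carry a CCAAT box and a CHR, chosen because each of them passed in at least 1 comparison below. The windows are chr10:128126424-128126553 (minus strand) for MKI67, chr1:43358851-43358980 (plus strand) for CDC20, chr15:59105016-59105145 (plus strand) for CCNB2, chr1:37692386-37692515 (plus strand) for CDCA8 and chr16:23678759-23678888 (plus strand) for PLK1. In CDCA8 and MKI67 a CHR match overlaps a CCAAT match.
MKI67: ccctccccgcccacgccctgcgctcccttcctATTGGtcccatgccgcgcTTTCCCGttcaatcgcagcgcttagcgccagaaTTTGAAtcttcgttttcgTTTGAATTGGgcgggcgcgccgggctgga
CDC20: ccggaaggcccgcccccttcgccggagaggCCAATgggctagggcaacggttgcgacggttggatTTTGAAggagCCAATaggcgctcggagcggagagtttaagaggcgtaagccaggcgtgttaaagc
CCNB2: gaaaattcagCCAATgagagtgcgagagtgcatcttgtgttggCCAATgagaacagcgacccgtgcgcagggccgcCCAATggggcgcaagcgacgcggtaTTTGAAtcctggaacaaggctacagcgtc
CDCA8: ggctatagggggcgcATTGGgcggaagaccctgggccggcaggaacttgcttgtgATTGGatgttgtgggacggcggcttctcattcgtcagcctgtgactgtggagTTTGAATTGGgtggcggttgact
PLK1: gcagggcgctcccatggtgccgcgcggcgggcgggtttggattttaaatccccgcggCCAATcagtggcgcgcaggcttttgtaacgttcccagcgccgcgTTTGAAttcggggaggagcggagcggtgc

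The depth was 137051 to 27702963 exon reads (median 11458465). The lowest belonged to replicate 1 of quinpirole, in which 96.7% of gene reads lay in introns, many members were at 0 and the pluripotent markers summed to 189 TPM, against at most 13.5 TPM in any other library. In that library 3 reads amount to 25.1 TPM for a gene of 3852 exon bases, the median of the members. Its levels, also that of the pluripotent markers, therefore rest on few reads. Without that library the lowest depth was 5755919 exon reads. TPM, the unit of all levels here, divides exon reads by exon length and gives each library an equal total, so that levels of different genes can be compared. In replicate 1 of 1 mM Acute 24 h the mitosis genes summed to 890 TPM, against 2152 and 2175 TPM in the other 2 libraries of its group, so each 1 mM result is also given without it, an alternative chosen after seeing the data. Intron shares were 12.3 to 13.2% at 1 mM Acute 1 h and 12.5 to 15.9% at 1 mM Acute 24 h, against 19.5 to 21.8% in their PBS libraries. Progenitor markers were present in all 4 control sets, with SOX2 at mean levels of 628, 662, 521 and 275 TPM and VIM at 1629, 2202, 1177 and 644 TPM in the controls of the 1 mM, the 1 µM, the time course and the agonist experiments. Neuron markers summed to 3046 to 3556 TPM in the 1 µM PBS libraries and to 4678 to 5392 TPM in the 1 mM PBS libraries. In the 4 control sets, in the order above, mean levels were 490, 385, 472 and 617 TPM for MAP2. For STMN2 they were 1546, 909, 1160 and 1333 TPM.

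All 43 members passed the filter on low counts in each experiment, and their level differed between the control sets of the experiments. In the PBS libraries of the 1 µM experiment the mitosis genes summed to 3598 ± 323 TPM (SD, n = 3), in the 1 mM PBS libraries to 2233 ± 34.4 TPM, under ascorbic acid to 1961 ± 91.0 TPM and under water to 676 ± 107 TPM. These sums did not overlap between the 1 µM experiment, whose libraries lay at 3250 to 3888 TPM, the 1 mM experiment at 2196 to 2264 TPM and the water libraries at 605 to 799 TPM. The S phase genes summed to 1114 ± 241 TPM in the 1 µM PBS libraries, 1233 ± 35.6 TPM in the 1 mM PBS libraries, 1060 ± 40.1 TPM under ascorbic acid and 633 ± 55.9 TPM under water. In a fit over the 12 control libraries, 43 of 43 members differed at an adjusted p under 0.05, beside 62.6% of all genes tested. Vehicle, culture and experiment cannot be told apart in this comparison, and because the libraries are bulk samples, fewer dividing cells and less RNA per cell cannot be told apart here or below.

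The order of the control sets was not the same for each gene. MKI67, the proliferation marker of the nucleus, was at 176 ± 17.5 TPM (SD, n = 3) in the 1 µM PBS libraries, 98.6 ± 5.77 TPM under ascorbic acid, 77.6 ± 4.69 TPM in the 1 mM PBS libraries and 32.1 ± 6.64 TPM under water. CDC20, which activates the complex that ends mitosis, was at 212 ± 64.2, 106 ± 9.23, 111 ± 5.21 and 28.5 ± 2.17 TPM in the same order, and the ascorbic acid and 1 mM PBS libraries overlapped. PCNA was highest in the 1 mM PBS libraries, at 311 ± 18.4 TPM, and lay at 192 ± 39.0, 223 ± 12.3 and 157 ± 24.6 TPM in the 1 µM PBS, ascorbic acid and water libraries, where the first of these overlapped with each of the others. The mitosis sum was 2.98 to 3.88 times the S phase sum in the 1 µM PBS libraries, 1.78 to 1.87 times in the 1 mM PBS libraries and 0.952 to 1.16 times under water.

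**Figure D1:**
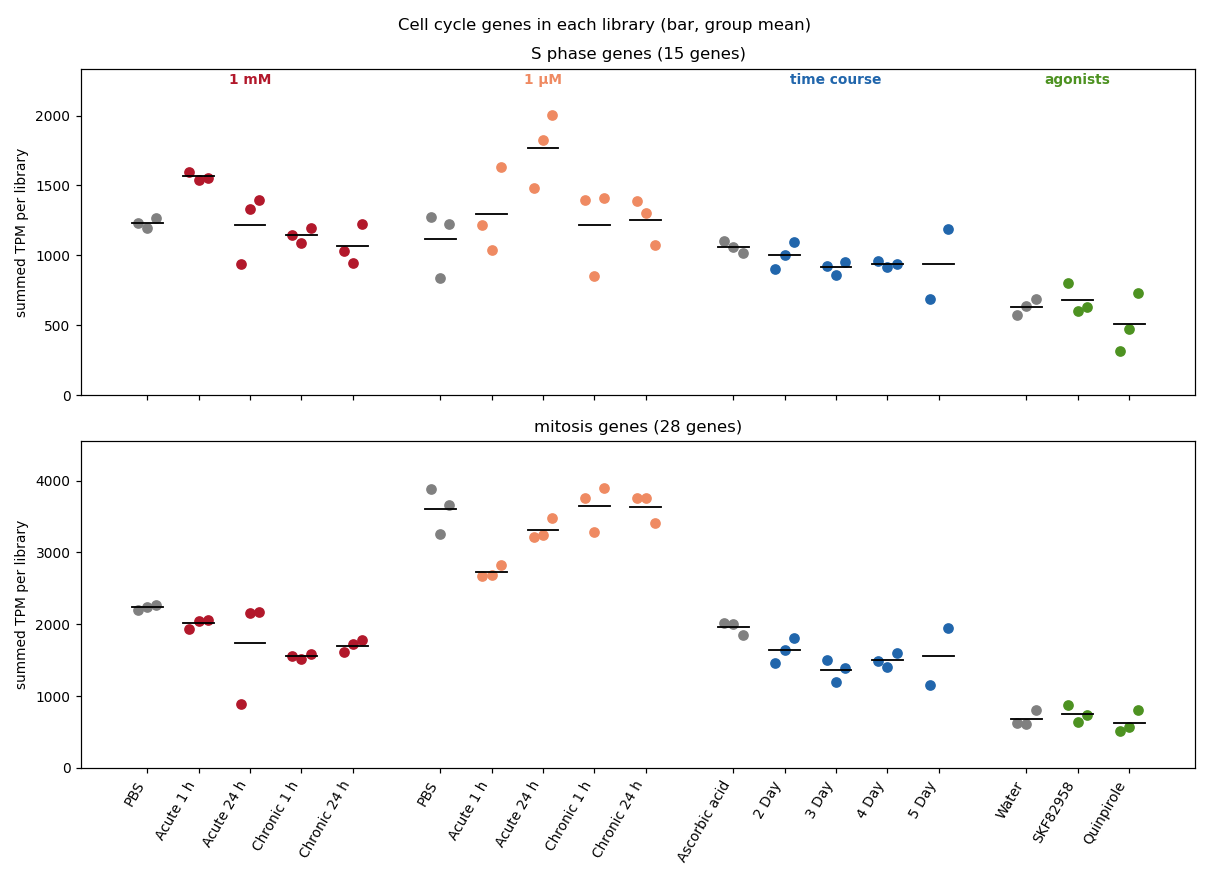
Summed TPM of the 15 S phase genes and of the 28 mitosis genes in each library (points) of the 18 conditions, with bars at the group means and control groups in grey. The mitosis sums lie at 3250 to 3888 TPM in the 1 µM PBS libraries and at 605 to 799 TPM in the water libraries, and replicate 1 of 1 mM Acute 24 h lies at 890 TPM.

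Among all 52 libraries other than replicate 1 of quinpirole, the members spanned from CCNE2 (cyclin E2, which drives entry into S phase), with a median of 4.78 TPM, to PCNA, with a median of 233 TPM and a range of 111 to 452 TPM. TOP2A, the enzyme that untangles DNA before chromosomes separate, had the highest median of the mitosis list, 224 TPM, with a range of 62.7 to 489 TPM. RRM2, the regulated subunit of ribonucleotide reductase, ranged from 2.47 TPM in replicate 1 of 1 mM Acute 24 h to 52.1 TPM in replicate 3 of 1 µM Acute 24 h. Of the 43 members, 21 overlap another annotated gene and 12 a protein-coding gene, and as the strand used in counting was not stated, the values of TYMS (with ENOSF1), MCM7 (with AP4M1), GINS2 (with GSE1), CCNE2 (with INTS8 and NDUFAF6), CCNA2 (with EXOSC9), KIF20A (with BRD8 and CDC23), NUSAP1 (with OIP5 among others), BUB1B (with PAK6), CENPA, PRC1, PLK1 and FOXM1 may include reads of those genes.

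**Figure D2:**
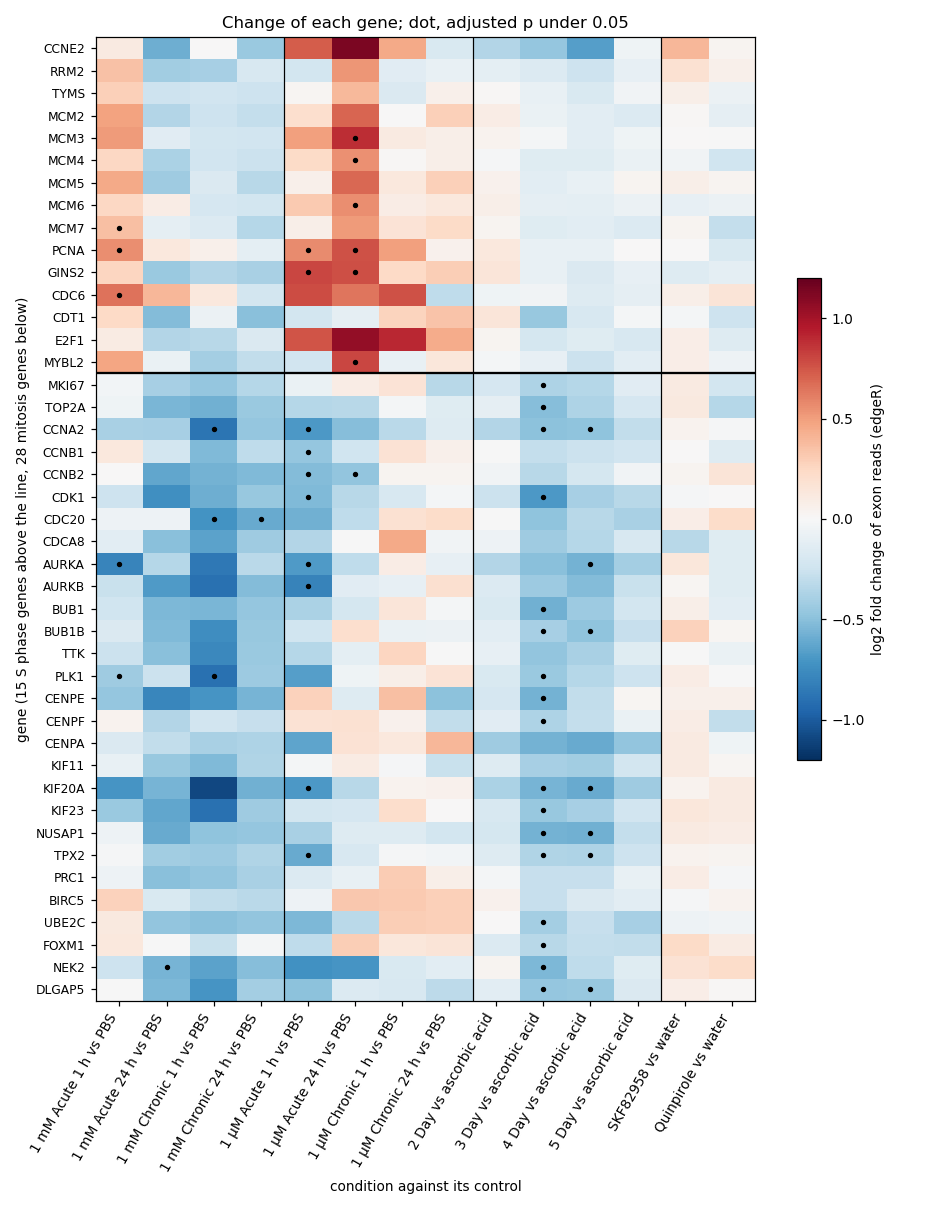
Log2 fold change of the 43 members (rows, S phase above mitosis) in 14 conditions (columns), each against the control of its own experiment, with a dot where the adjusted p was under 0.05. S phase genes are positive in 15 of 15 at 1 mM Acute 1 h, and mitosis genes are negative in 28 of 28 at 1 mM Chronic 1 h, 3 Day and 4 Day.

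At 1 h after a lone dose of 1 mM dopamine, 3 S phase genes were higher and 2 mitosis genes lower than in PBS. Of the 15 S phase genes 3 rose (PCNA, CDC6 and MCM7) and none fell, and the median log2 fold change of the list was 0.36. Of the 28 mitosis genes 2 fell (PLK1 and AURKA) and the median was -0.11. Over all genes tested the median was 0.01, 8.04% rose and 7.94% fell. Without replicate 1 of 1 mM Acute 24 h, which belongs to neither group but adds to the spread of the fit, 11 S phase genes rose, 12 mitosis genes fell and 1 (BIRC5, survivin of the chromosomal passenger complex) rose, beside 19.9% of all genes in each direction. The 2 of 28 mitosis genes that fell are a share near that of all genes in the fit of all libraries, whereas the S phase share was above it.

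PCNA was at 294, 310 and 331 TPM in the PBS libraries and at 439, 422 and 452 TPM at Acute 1 h. The groups did not overlap, and the log2 fold change was 0.56 (SE 0.11, adjusted p = 0.00611). CDC6, which loads the MCM helicase onto origins, was at 11.9, 10.3 and 12.9 TPM in PBS and at 18.5, 17.3 and 16.9 TPM at Acute 1 h, again without overlap, with a log2 fold change of 0.65 (standard error 0.18, adjusted p = 0.0282). MCM7, a subunit of that helicase, went from 170 to 186 TPM in PBS to 210 to 225 TPM, with a log2 fold change of 0.36 (standard error 0.11, adjusted p = 0.0475). MCM2, of the same helicase, was at 84.5 to 93.1 TPM in PBS and at 114 to 128 TPM at Acute 1 h. These groups did not overlap either, but its log2 fold change of 0.49 (adjusted p = 0.272) did not pass until replicate 1 of Acute 24 h was left out (adjusted p = 0.000153). RRM2 (27.0 to 29.7 TPM in PBS, 33.5 to 35.5 TPM at Acute 1 h) and TYMS, thymidylate synthase (134 to 140 TPM in PBS, 157 to 165 TPM at Acute 1 h), followed the same pattern, with adjusted p = 0.704 and 0.219 in the fit with that library and 0.00684 and 0.00811 without it.

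Among mitosis genes PLK1, the Polo kinase that drives entry into mitosis, was at 46.7, 48.6 and 48.4 TPM in PBS and at 33.9, 33.6 and 34.8 TPM at Acute 1 h. The groups lay far apart for their spread, with a log2 fold change of -0.42 (standard error 0.11, adjusted p = 0.0167). AURKA, the Aurora kinase of the spindle poles, was at 34.5, 38.8 and 38.2 TPM in PBS and at 20.3, 19.9 and 21.6 TPM, with a log2 fold change of -0.79 (standard error 0.21, adjusted p = 0.0237). MKI67 (73.1 to 82.4 TPM in PBS, 70.5 to 73.8 TPM at Acute 1 h) and CCNB1, cyclin B1 (119 to 134 against 124 to 136 TPM), overlapped between the groups and did not pass with or without replicate 1 of Acute 24 h. TOP2A, at 279 to 291 TPM in PBS and 238 to 280 TPM at Acute 1 h, also overlapped and did not pass in either fit. CDK1, the kinase partner of cyclins A and B, at 91.6 to 99.9 TPM in PBS and 73.5 to 79.0 TPM at Acute 1 h, passed only without it (log2 fold change -0.27, adjusted p = 0.0113).

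Genes that act before S phase moved as well. CCND1, cyclin D1 of G1, was at 54.4, 61.1 and 52.5 TPM in PBS and at 119, 105 and 120 TPM at Acute 1 h, with a log2 fold change of 1.10 (standard error 0.21, adjusted p = 0.00433). CDK4, the kinase that cyclin D activates, also rose (0.41, SE 0.13, adjusted p = 0.0455), so 2 of 8 genes for G1 cyclins and CDKs passed. CCND2, cyclin D2, had a log2 fold change of -0.50 (adjusted p = 0.0919) and CDKN1A, the inhibitor p21, of 0.31 (adjusted p = 0.502). Of 30 other S phase genes 2 rose, FEN1 and GINS4, beside 8.04% of all genes, and of 30 other mitosis genes 0 passed in edgeR (1 at an unadjusted p under 0.05). That unadjusted threshold was reached by 5509 of all 17804 genes tested. In the fit without replicate 1 of Acute 24 h, 11 of these S phase genes rose and 2 fell, and 3 of these mitosis genes rose and 10 fell, beside 19.9% of all genes in each direction. Among 10 inhibitors of CDKs and pocket proteins, which hold cells in G1, CDKN2B and CDKN2A rose. The mesenchymal and matrix markers, of which 3 of 8 passed, summed to 110 to 137 TPM in PBS and 305 to 411 TPM at Acute 1 h. ACTA2 (mean 21.3 TPM in PBS, 169 TPM at Acute 1 h) and TAGLN (9.09 and 89.6 TPM) were higher and DCN was lower. COL1A1, COL1A2, COL3A1, LUM and PDGFRB overlapped between the groups and did not pass, so the higher sum lay in ACTA2 and TAGLN. The part of these markers and of the lower intron share in the result was not tested.

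At 24 h after the lone 1 mM dose 0 S phase genes and 1 mitosis gene passed against PBS. Of the 15 S phase genes, 0 passed in edgeR (2 at an unadjusted p under 0.05, median -0.35, against 0.02 over all genes), and of the 28 mitosis genes 1, NEK2, fell (median -0.50), beside 7.09% of all genes. An unadjusted p under 0.05 was found for 6146 of all 17804 genes tested. DESeq2 called 2 of the 43. NEK2, a kinase that separates centrosomes, was at 53.9, 51.0 and 46.9 TPM in PBS and at 29.1, 42.1 and 38.8 TPM at Acute 24 h, with a log2 fold change of -0.56 (standard error 0.16, adjusted p = 0.0313). The medians rest on replicate 1, in which CDK1 was at 25.8 TPM against 74.8 and 80.8 TPM in the other 2, MYBL2 at 48.4 against 105 and 118 TPM, and CCNB1 at 50.3 against 150 and 141 TPM. In the same library CDKN1A was at 794 TPM against 280 and 300 TPM, while PCNA, at 351 TPM against 370 and 384 TPM, stood with the others. Neuron and glial genes also spread widely within this group, given here in ascending order. TUBB3 lay at 140, 740 and 894 TPM, STMN2 at 667, 1184 and 1228 TPM, DCX at 207, 486 and 491 TPM and S100B at 5.20, 25.1 and 33.0 TPM. MAP2, at 454 to 482 TPM, did not. All 3 PCNA values lay above the 294 to 331 TPM of PBS, but PCNA did not pass (log2 fold change 0.13, adjusted p = 0.432, or 0.22 and adjusted p = 0.0995 without replicate 1). The S phase sum was 936 TPM in replicate 1, below every PBS library, and 1330 and 1394 TPM in replicates 2 and 3, above the 1199 to 1270 TPM of PBS. The 24 h libraries were not tested against those of 1 h. Without it the medians were 0.02 for S phase and -0.15 for mitosis genes, 0 S phase genes passed, 5 mitosis genes fell (CDK1, NEK2, BUB1, CENPE and KIF23) and 2 rose (FOXM1 and BIRC5), beside 11.1% of all genes in each direction. CCND1 was then higher than in PBS (log2 fold change 0.88, SE 0.12, adjusted p = 0.000293) and CCND2 lower (-0.77, SE 0.18, adjusted p = 0.00825), and neither passed with the library.

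After daily doses of 1 mM, 3 mitosis genes were lower than in PBS at 1 h and 1 at 24 h. At Chronic 1 h all 28 had a negative log2 fold change, from -1.10 (KIF20A) to -0.23, with a median of -0.58, and 3 fell (CDC20, PLK1 and CCNA2), beside 0.814% of all genes and a median of 0.00 over all genes. Of the 15 S phase genes 0 passed in edgeR (1 at an unadjusted p under 0.05, median -0.22), and DESeq2 called 7 of the 43 members. Over all 17804 genes tested, 2923 had an unadjusted p under 0.05. Without replicate 1 of Acute 24 h, 27 of the 28 mitosis genes (all but CENPF) and 7 of the 15 S phase genes fell, beside 9.1% of all genes. The mitosis sum was 1515 to 1587 TPM at Chronic 1 h and 2196 to 2264 TPM in PBS, with no overlap, and the S phase sum 1092 to 1194 TPM against 1199 to 1270 TPM.

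CDC20 was at 110, 117 and 107 TPM in PBS and at 73.7, 65.8 and 69.0 TPM at Chronic 1 h. The log2 fold change was -0.72 (SE 0.08, adjusted p = 0.000865). PLK1 was at 25.4, 26.9 and 27.6 TPM at Chronic 1 h, below every PBS and every Acute 1 h library, with a log2 fold change of -0.89 against PBS (standard error 0.11, adjusted p = 0.000896). CCNA2, cyclin A2, fell from 107, 105 and 104 TPM to 64.6, 58.3 and 54.3 TPM (log2 fold change -0.88, SE 0.16, adjusted p = 0.0156). KIF20A, a motor protein of cell division, was at 40.6 ± 2.20 TPM (SD, n = 3) in PBS and at 19.8, 19.8 and 19.0 TPM at Chronic 1 h. Its groups did not overlap, and its log2 fold change was larger than those of CDC20, PLK1 and CCNA2, but it passed only without replicate 1 of Acute 24 h (log2 fold change -1.10, adjusted p = 0.0973 with and 6.79e-07 without that library). KIF20A was at 11.8 TPM in that replicate and 39.0 and 36.1 TPM in the others of its group.

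The genes chosen to be followed, not all of which are given here, did not pass at Chronic 1 h in the fit of all libraries. MKI67 was at 77.4, 73.1 and 82.4 TPM in PBS and at 57.6, 56.3 and 60.1 TPM at Chronic 1 h, with no overlap and a log2 fold change of -0.46 (adjusted p = 0.419, or 0.00024 without replicate 1 of Acute 24 h). CDK1 was at 62.5 to 71.8 TPM against 91.6 to 99.9 TPM (-0.58, adjusted p = 0.377 or 0.000114) and CCNB1 at 84.3 to 93.3 TPM against 119 to 134 TPM (-0.53, adjusted p = 0.428 or 0.000846). MCM2, at 70.4 to 82.3 TPM against 84.5 to 93.1 TPM, gave a smaller log2 fold change of -0.24 (adjusted p = 0.747 or 0.0274). PCNA was at 322 to 345 TPM against 294 to 331 TPM and did not pass in either fit. CDKN1A, at 370 to 501 TPM against 239 to 287 TPM, had a log2 fold change of 0.69 (adjusted p = 0.25 or 0.00735), and CCND1, at 56.7 to 61.7 TPM, overlapped with PBS. Of 30 other mitosis genes 1 fell (ECT2, which starts cytokinesis, -0.50, adjusted p = 0.0407), beside 0.814% of all genes. Without replicate 1 of Acute 24 h, 23 of them fell, beside 9.1% of all genes.

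The remaining mitosis genes at 1 mM Chronic 1 h had the same direction in each of their roles. Of the chromosomal passenger complex, which corrects the attachment of chromosomes, AURKB was at 26.5 to 29.3 TPM against 46.9 to 52.3 TPM in PBS and CDCA8 at 29.1 to 32.4 TPM against 44.7 to 47.3 TPM, and neither group overlapped with PBS. Of the spindle checkpoint, BUB1B was at 33.6 to 36.1 TPM against 55.6 to 58.2 TPM and TTK at 18.9 to 22.2 TPM against 32.2 to 35.5 TPM. Of the motors and spindle proteins, KIF23 was at 16.4 to 18.4 TPM against 28.8 to 32.6 TPM and TPX2 at 104 to 109 TPM against 138 to 142 TPM. FOXM1, the factor that switches on many of these genes, had a smaller log2 fold change, -0.27 (adjusted p = 0.633 or 0.0166 without replicate 1 of Acute 24 h), at 39.9 to 43.2 TPM against 46.2 to 49.3 TPM, and MYBL2, at 67.4 to 73.4 TPM against 82.9 to 97.9 TPM, one of -0.41 (adjusted p = 0.484 or 0.00616). CENPF, a protein of the outer kinetochore, had the smallest in size, -0.23 (adjusted p = 0.78 or 0.101).

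The 14 progenitor markers summed to 3222 to 3358 TPM at Chronic 1 h against 3424 to 3857 TPM in PBS, and 1 of them, HES5, a target of Notch, fell, beside 0.814% of all genes. Without replicate 1 of Acute 24 h 5 fell and 2 rose, beside 9.1 and 9.25% of all genes. How far the progenitor and mitosis lists differed from each other was not tested. Neuron markers summed to 4896 to 5114 TPM against 4678 to 5392 TPM. The glial list, with GFAP higher, summed to 70.5 to 76.3 TPM against 40.6 to 42.7 TPM. Intron shares, at 20.6 to 20.9%, lay within those of PBS. The part of these cell types in the result was not tested.

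At 1 mM Chronic 24 h the mitosis genes had a median log2 fold change of -0.44 and the S phase genes of -0.25, against 0.01 over all genes. CDC20 alone passed, at 68.7, 75.4 and 79.5 TPM against 107 to 117 TPM in PBS (log2 fold change -0.60, SE 0.08, adjusted p = 0.0127), beside 0.545% of all genes. With replicate 1 of Acute 24 h left out, 25 mitosis genes and 7 S phase genes fell, beside 5.42%. The mitosis sum was 1610 to 1778 TPM, below every PBS library, and the progenitor sum 2710 to 3015 TPM was also below every PBS library.

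**Figure D3:**
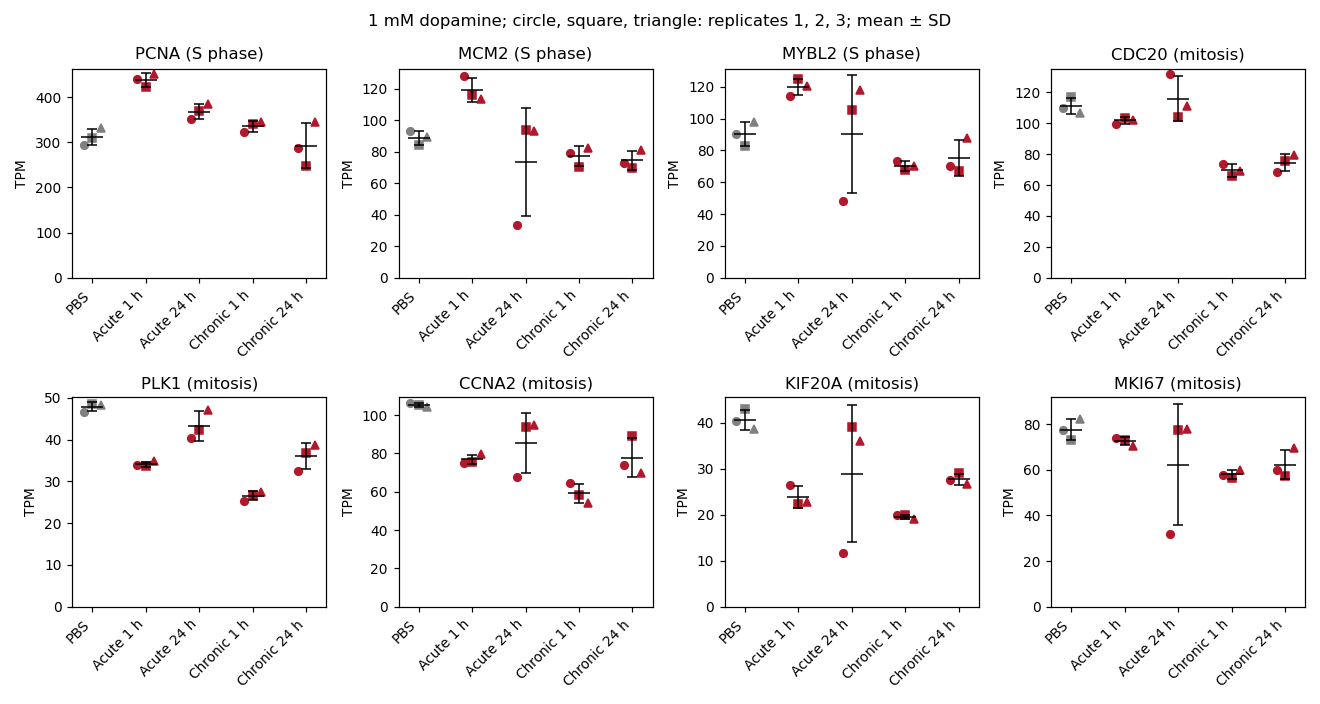
TPM of PCNA, MCM2, MYBL2, CDC20, PLK1, CCNA2, KIF20A and MKI67 in the libraries of the 1 mM experiment, with replicates 1, 2 and 3 as circles, squares and triangles and bars for the group mean ± SD. CDC20 lies at 65.8 to 73.7 TPM at Chronic 1 h and at 107 to 117 TPM in PBS, and the circle of Acute 24 h is the library that stood apart.

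Chronic and Acute libraries of the 1 mM dose were also compared directly. At 1 h, 5 S phase genes (MCM6, MCM7, PCNA, TYMS and MYBL2) and 2 mitosis genes (CDC20 and PLK1) were lower after daily doses than after the lone dose, with medians of -0.52 and -0.45, beside 5.91% of all genes. MCM6, of the MCM helicase, was at 88.3, 87.0 and 86.7 TPM at Acute 1 h and at 71.3, 63.6 and 70.4 TPM at Chronic 1 h (log2 fold change -0.46, SE 0.09, adjusted p = 0.00677). PCNA fell from 422 to 452 TPM to 322 to 345 TPM (-0.49, SE 0.11, adjusted p = 0.014), MCM7 by 0.53 on the log2 scale (adjusted p = 0.0107) and TYMS by 0.52 (adjusted p = 0.0416). CDC20 was at 99.7 to 104 TPM at Acute 1 h and at 65.8 to 73.7 TPM at Chronic 1 h (-0.66, SE 0.09, adjusted p = 0.000527). CCND1, at 105 to 120 TPM after the lone dose and 56.7 to 61.7 TPM after daily doses, was lower as well (-1.06, SE 0.21, adjusted p = 0.00602). With replicate 1 of Acute 24 h left out, 14 S phase and 25 mitosis genes were lower, beside 16.6% of all genes. At 24 h CDC20 alone was lower in Chronic than in Acute (log2 fold change -0.54, SE 0.08, adjusted p = 0.00263), beside 3.9% of all genes, and without that replicate 8 S phase and 18 mitosis genes were lower, beside 7.48%.

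After the lone 1 µM dose some S phase genes were higher at 1 h and at 24 h, and some mitosis genes were lower at 1 h. At Acute 1 h 2 S phase genes rose (GINS2 and PCNA, list median 0.23), beside 3.25% of all genes, and 8 mitosis genes fell (KIF20A, CCNB2, CCNB1, AURKA, AURKB, TPX2, CCNA2 and CDK1, list median -0.43), beside 2.52%, with a median of 0.02 over all genes. At Acute 24 h 6 S phase genes rose (PCNA, MCM3, MYBL2, GINS2, MCM4 and MCM6, list median 0.69), beside 1.4% of all genes, and 1 mitosis gene fell (CCNB2, list median -0.16), beside 1.91%, with a median of 0.01 over all genes. At Chronic 1 h 0 members passed in edgeR (4 at an unadjusted p under 0.05, 2 with DESeq2), beside 2.58% of all genes, and at Chronic 24 h 0 passed (0 at an unadjusted p under 0.05, 0 with DESeq2), beside 0% of all genes. Of all 16541 genes tested, 2408 at Chronic 1 h and 608 at Chronic 24 h had an unadjusted p under 0.05.

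PCNA was at 207, 148 and 222 TPM in the 1 µM PBS libraries, at 249, 276 and 305 TPM at Acute 1 h and at 286, 348 and 377 TPM at Acute 24 h. Every Acute library lay above every PBS library, with log2 fold changes of 0.57 (SE 0.13, adjusted p = 0.022) and 0.77 (SE 0.13, adjusted p = 0.00668). GINS2, which joins the MCM helicase to the moving fork, was at 41.3, 19.1 and 34.7 TPM in PBS, at up to 61.2 TPM at Acute 1 h, where all 3 libraries lay above PBS, and at 47.1, 54.6 and 61.8 TPM at Acute 24 h (log2 fold changes 0.80 and 0.78, SE 0.16 for both, adjusted p = 0.00751 and 0.0155). MCM3, of the helicase, was at 82.1, 71.3 and 71.5 TPM in PBS and at 121, 154 and 160 TPM at Acute 24 h, a log2 fold change of 0.88 (standard error 0.16, adjusted p = 0.00859). MYBL2, the factor that helps to switch on mitosis genes, was at 128, 78.2 and 137 TPM in PBS and at 181, 206 and 221 TPM at Acute 24 h, without overlap (0.80, SE 0.15, adjusted p = 0.0102). At Acute 1 h MYBL2 was at 72.8 to 121 TPM and did not pass (adjusted p = 0.429).

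Other S phase members followed the same direction at 1 µM Acute 24 h, where 14 of 15 log2 fold changes were positive. RRM2 was at 30.1 to 33.0 TPM in PBS and at 42.9 to 52.1 TPM at Acute 24 h, with no overlap, and narrowly missed the threshold (log2 fold change 0.53, SE 0.15, adjusted p = 0.069). MCM2 (54.5 to 119 TPM in PBS, 113 to 186 TPM at Acute 24 h, adjusted p = 0.142) and TYMS (118 to 152 against 159 to 204 TPM, adjusted p = 0.107) did not pass. Of 30 other S phase genes 9 rose, beside 1.4% of all genes. They were led by CDC45, which unwinds DNA with the MCM helicase (log2 fold change 1.61), UHRF1, which maintains DNA methylation behind the fork (1.15), and FEN1, which trims DNA flaps (1.02). CDC45 was at 10.7, 5.92 and 13.8 TPM in PBS and at 28.6, 30.0 and 34.9 TPM at Acute 24 h (SE 0.25, adjusted p = 0.00324). CCND2 was lower, at 184 to 224 TPM against 247 to 370 TPM (-0.68, SE 0.10, adjusted p = 0.00197), and CCND1, at 68.5 to 87.8 TPM against 48.2 to 77.3 TPM, did not pass. CDKN1A, at 97.1, 153 and 144 TPM against 367, 167 and 311 TPM, lay below every PBS library and did not pass (-1.11, adjusted p = 0.133).

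Among mitosis genes at 1 µM Acute 1 h, KIF20A was at 78.7, 68.7 and 77.0 TPM in PBS and at 51.6, 41.5 and 44.6 TPM, without overlap (log2 fold change -0.69, SE 0.13, adjusted p = 0.00632). CCNB2, cyclin B2, was at 131, 99.6 and 115 TPM in PBS and at 91.8, 59.9 and 89.9 TPM (-0.52, SE 0.12, adjusted p = 0.0183). CCNB1 was at 199, 140 and 175 TPM in PBS and at 121, 103 and 145 TPM, with an overlap of the groups (-0.46, SE 0.11, adjusted p = 0.0204). AURKA was at 58.2, 52.1 and 54.2 TPM in PBS and at 41.3, 23.1 and 39.9 TPM (-0.68, SE 0.16, adjusted p = 0.0251). CDK1 fell by 0.53 on the log2 scale (SE 0.15, adjusted p = 0.0462). MKI67, at 164 to 196 TPM in PBS and 138 to 191 TPM at Acute 1 h, and TOP2A, at 442 to 489 TPM and 338 to 390 TPM, did not pass (adjusted p = 0.908 and 0.306), although TOP2A did not overlap. CCND1 rose from 77.3, 48.2 and 68.7 TPM to 111, 93.8 and 137 TPM (0.84, SE 0.10, adjusted p = 0.000283) and CCND2 fell (-0.41, SE 0.10, adjusted p = 0.0222).

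Other markers at 1 µM Acute 1 h were read beside these changes. Of the 14 progenitor markers HES1, SOX1, NES and HES5 rose, beside 3.25% of all genes, and VIM and HOPX fell, beside 2.52%. The list summed to 2969 to 4752 TPM against 3578 to 4827 TPM in PBS. Neuron markers summed to 2698 to 3016 TPM against 3046 to 3556 TPM, and mesenchymal and matrix markers to 32.8 to 71.3 TPM against 49.5 to 104 TPM. The intron share was 20.2 to 31.2% against 22.3 to 23.6%, and its highest value was that of replicate 2. The part of these differences in the result was not tested.

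**Figure D4:**
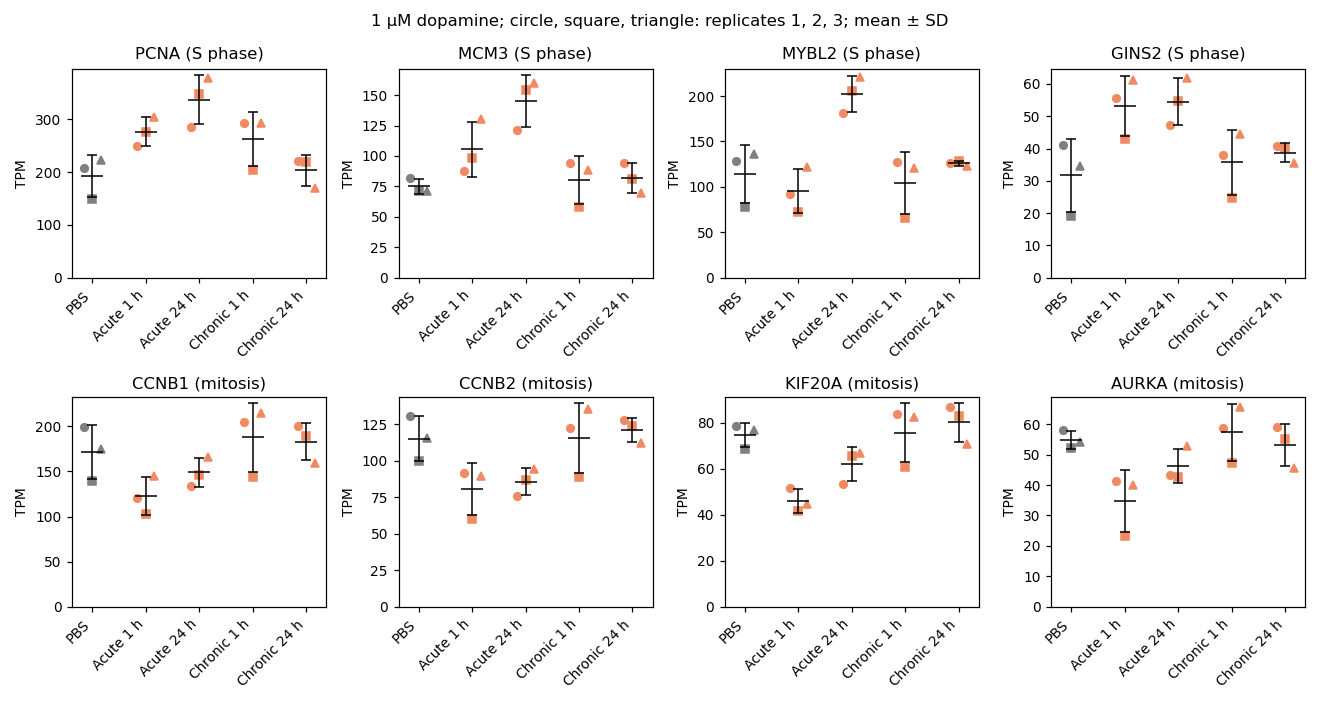
TPM of PCNA, MCM3, MYBL2, GINS2, CCNB1, CCNB2, KIF20A and AURKA in the libraries of the 1 µM experiment, with replicates 1, 2 and 3 as circles, squares and triangles and bars for the group mean ± SD. MCM3 lies at 71.3 to 82.1 TPM in PBS and at 121 to 160 TPM at Acute 24 h, and KIF20A at 68.7 to 78.7 TPM in PBS and 41.5 to 51.6 TPM at Acute 1 h.

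Replicate 2 of several 1 µM groups was lower than its partners in S phase genes. The S phase sum was 838 TPM in replicate 2 of PBS against 1278 and 1226 TPM, 1041 TPM in replicate 2 of Acute 1 h against 1220 and 1630 TPM, and 852 TPM in replicate 2 of Chronic 1 h against 1394 and 1408 TPM. The neuron marker TUBB3 was uneven in these groups too. Its lowest value and median were 367 and 707 TPM in PBS, 225 and 611 TPM at Acute 1 h, and 305 and 686 TPM at Chronic 1 h. STMN2 spread less, at 880 to 931, 702 to 858 and 755 to 867 TPM in the same order. Whether the low TUBB3 values fell in the libraries with low S phase sums was not tested. The count of members passed at Acute 1 h was 4 without replicate 1 of PBS and 6 without its replicate 2, against 10 with both. At Acute 24 h the count of 7 became 12 without replicate 2 of Acute 1 h, 2 without any 1 replicate of Acute 24 h, and 3 without replicate 1 or 3 of PBS.

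After daily 1 µM doses no member passed against PBS in edgeR, which does not show that the members were unchanged. PCNA, at 292, 205 and 293 TPM at Chronic 1 h, had a log2 fold change of 0.50 (standard error 0.13, adjusted p = 0.0657). The mitosis sum was 3283 to 3891 TPM at Chronic 1 h and 3406 to 3753 TPM at Chronic 24 h, both overlapping with the 3250 to 3888 TPM of PBS. CCND1 was higher at Chronic 1 h (68.2 to 98.5 TPM, log2 fold change 0.49, SE 0.10, adjusted p = 0.0215). Against Acute 1 h, Chronic 1 h had 5 mitosis genes higher (CCNB1, CDCA8, KIF20A, CCNB2 and AURKA, list median 0.50) and 0 S phase genes passed in edgeR (2 at an unadjusted p under 0.05), beside 0.556% of all genes. An unadjusted p under 0.05 was found here for 2198 of all 16541 genes tested. CDCA8, of the chromosomal passenger complex, was at 53.7, 45.5 and 64.4 TPM at Acute 1 h and at 103, 67.3 and 113 TPM at Chronic 1 h (0.81, SE 0.14, adjusted p = 0.0117), and CCNB1 rose by 0.63 (SE 0.11, adjusted p = 0.011). Against Acute 24 h, Chronic 24 h had 5 S phase genes lower (PCNA, MCM3, MYBL2, RRM2 and MCM4), beside 2.11% of all genes, and CCNB2 higher, beside 2.37%. PCNA was at 222, 218 and 169 TPM at Chronic 24 h, below every Acute 24 h library (-0.72, SE 0.13, adjusted p = 0.00754), and RRM2, at 30.6 to 31.5 TPM, as well (-0.62, SE 0.15, adjusted p = 0.0286). CDKN1A was higher, at 298 to 424 TPM against 97.1 to 153 TPM (1.52, SE 0.38, adjusted p = 0.036). The comparisons with Acute and with PBS share libraries and are not independent of each other.

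The difference between the doses was itself tested, as the change against PBS at 1 mM minus that at 1 µM, since some mitosis genes were lower at Chronic 1 h of the 1 mM dose and some S phase genes higher at Acute 24 h of the 1 µM dose. In edgeR 0 of 43 members passed in any of the 4 conditions, with smallest adjusted p = 0.27 at Acute 1 h, 0.0811 at Acute 24 h, 0.175 at Chronic 1 h and 0.314 at Chronic 24 h, beside 2.01, 0.663, 0.087 and 0.0109% of all genes. At an unadjusted p under 0.05 there were 12 of 15 S phase genes at Acute 24 h (median difference -0.94) and 12 of 28 mitosis genes at Chronic 1 h (median -0.67). Over all 18390 genes tested, 2518 at Acute 24 h and 1462 at Chronic 1 h had an unadjusted p under 0.05. The count at Acute 24 h includes replicate 1 of 1 mM Acute 24 h. Without replicate 1 of 1 mM Acute 24 h, 8 mitosis genes were lower at Chronic 1 h of the 1 mM dose (KIF20A, CDCA8, KIF23, AURKA, CCNB1, PRC1, CCNB2 and BUB1), beside 0.375% of all genes, with differences from -1.16 for KIF20A (SE 0.15, adjusted p = 0.000123) to -0.62 for CCNB2. In the same fit MYBL2, RRM2, CCNB1, CCNB2 and TPX2 were higher at Acute 1 h of the 1 mM dose, beside 2.62%, and 0 members passed at Acute 24 h and Chronic 24 h, beside 0.55 and 0.0317%. A member that passed against PBS at 1 dose and not at the other is therefore not shown to differ between doses in the fit of all libraries.

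In the time course 17 of 28 mitosis genes were lower after 3 days of daily 1 mM dopamine and 7 after 4 days, while 0 S phase genes passed on any day. After 2 days 0 members passed in edgeR (5 at an unadjusted p under 0.05, 1 with DESeq2), beside 3.88% of all genes, with medians of 0.04 for S phase and -0.16 for mitosis genes. After 3 days the 17 genes had NUSAP1, CENPE, BUB1 and CCNA2 at the smallest adjusted p, and all 28 log2 fold changes lay between -0.69 and -0.28 (median -0.45, against 0.00 over all genes), beside 2.6% of all genes. Of the S phase genes 0 passed in edgeR (1 at an unadjusted p under 0.05), with a median of -0.11, and DESeq2 called 21 of the 43 members. After 4 days 7 mitosis genes fell (KIF20A, NUSAP1, CCNA2, DLGAP5, BUB1B, TPX2 and AURKA, list median -0.37), beside 1.8%, and 0 S phase genes passed (3 at an unadjusted p under 0.05, list median -0.15), while DESeq2 called 14 of the 43. After 5 days, with 2 libraries, 0 passed in edgeR (10 at an unadjusted p under 0.05, 0 with DESeq2), with a mitosis median of -0.23, beside 1.63% of all genes. Over all 16768 genes tested, 3396, 3729, 3358 and 2609 had an unadjusted p under 0.05 after 2, 3, 4 and 5 days. The differences between days were not tested.

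NUSAP1, which bundles spindle microtubules, was at 110, 115 and 113 TPM under ascorbic acid, at 83.3, 58.6 and 70.9 TPM at 3 Day and at 70.7, 69.8 and 81.2 TPM at 4 Day. All dopamine libraries of these days lay below the controls, with log2 fold changes of -0.57 (SE 0.11, adjusted p = 0.00797) and -0.58 (SE 0.12, adjusted p = 0.0112). CENPE, a motor that carries chromosomes to the spindle centre, was at 21.1, 20.9 and 20.7 TPM under ascorbic acid and at 10.7 to 15.0 TPM at 3 Day (-0.57, SE 0.12, adjusted p = 0.00866). BUB1, a checkpoint kinase, fell from 31.0, 34.6 and 33.1 TPM to 22.1, 18.7 and 21.4 TPM (-0.57, SE 0.12, adjusted p = 0.00945). CCNA2 was at 70.0, 80.1 and 67.9 TPM under ascorbic acid, at 46.8 to 57.6 TPM at 2 Day, 42.7 to 53.2 TPM at 3 Day and 47.5 to 55.3 TPM at 4 Day. Its log2 fold changes were -0.35 (adjusted p = 0.0676), -0.50 (adjusted p = 0.0098) and -0.49 (adjusted p = 0.0167). KIF20A, at 30.7 to 35.6 TPM under ascorbic acid, was at 19.0 to 24.4 TPM at 4 Day (-0.60, SE 0.12, adjusted p = 0.0112), and DLGAP5, which stabilizes spindle fibres, was at 36.3 to 42.7 TPM against 55.1 to 57.2 TPM (-0.45, SE 0.11, adjusted p = 0.0254).

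MKI67 was at 95.3, 105 and 95.2 TPM under ascorbic acid and at 82.1, 63.8 and 67.9 TPM at 3 Day (log2 fold change -0.37, SE 0.10, adjusted p = 0.0286), and at 71.6 to 84.5 TPM at 4 Day, where it did not pass (adjusted p = 0.0551). TOP2A fell at 3 Day from 209 to 230 TPM to 118 to 172 TPM (-0.51, SE 0.12, adjusted p = 0.0215) and CDK1 from 51.3 to 63.5 TPM to 27.9 to 41.1 TPM (-0.69, SE 0.16, adjusted p = 0.0172). CCNB1, at 74.6 to 93.7 TPM against 105 to 114 TPM, did not overlap but did not pass (adjusted p = 0.167). PCNA (177 to 211 against 210 to 234 TPM), MCM2 (67.1 to 73.7 against 73.7 to 87.2 TPM), RRM2 (22.1 to 26.7 against 27.5 to 28.8 TPM) and TYMS (103 to 120 against 114 to 133 TPM) did not pass at 3 Day. Of 30 other mitosis genes 22 fell at 3 Day and 7 at 4 Day, and of 30 other S phase genes 1 (E2F8) fell at 3 Day and 5 at 4 Day. Of all genes 2.6% fell at 3 Day and 1.8% at 4 Day. CCND1 was higher at 3 Day (92.1, 109 and 115 TPM against 73.0, 87.0 and 80.4 TPM, log2 fold change 0.49, SE 0.12, adjusted p = 0.0195) and CDKN1A at 4 Day (234 to 273 TPM against 176 to 189 TPM, 0.51, SE 0.12, adjusted p = 0.0311). CCND2 did not pass on any day.

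By role, the mitosis genes that fell at 3 Day covered cyclin A and CDK1, the checkpoint (BUB1 and BUB1B), the kinetochore (CENPE and CENPF), the motors KIF20A and KIF23, the spindle proteins NUSAP1, TPX2 and DLGAP5, the kinases PLK1 and NEK2, TOP2A, MKI67, FOXM1 and UBE2C, the enzyme that marks cyclins for destruction. FOXM1 was at 58.1 to 59.5 TPM under ascorbic acid and at 43.4 to 44.0 TPM at 3 Day (log2 fold change -0.33, SE 0.08, adjusted p = 0.0209). UBE2C was at 148 to 171 TPM under ascorbic acid and at 106 to 117 TPM at 3 Day (-0.41, SE 0.12, adjusted p = 0.0435). The 11 that did not pass included AURKB (32.5 to 44.2 TPM under ascorbic acid, 21.1 to 31.2 TPM at 3 Day, adjusted p = 0.143), CDC20 (at most 73.8 TPM at 3 Day, below every control, adjusted p = 0.0577) and BIRC5 (69.2 to 71.1 TPM under ascorbic acid, 50.3 to 57.8 TPM at 3 Day, adjusted p = 0.212). None of these 3 groups overlapped with the controls, and their log2 fold changes were -0.44, -0.49 and -0.28.

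**Figure D5:**
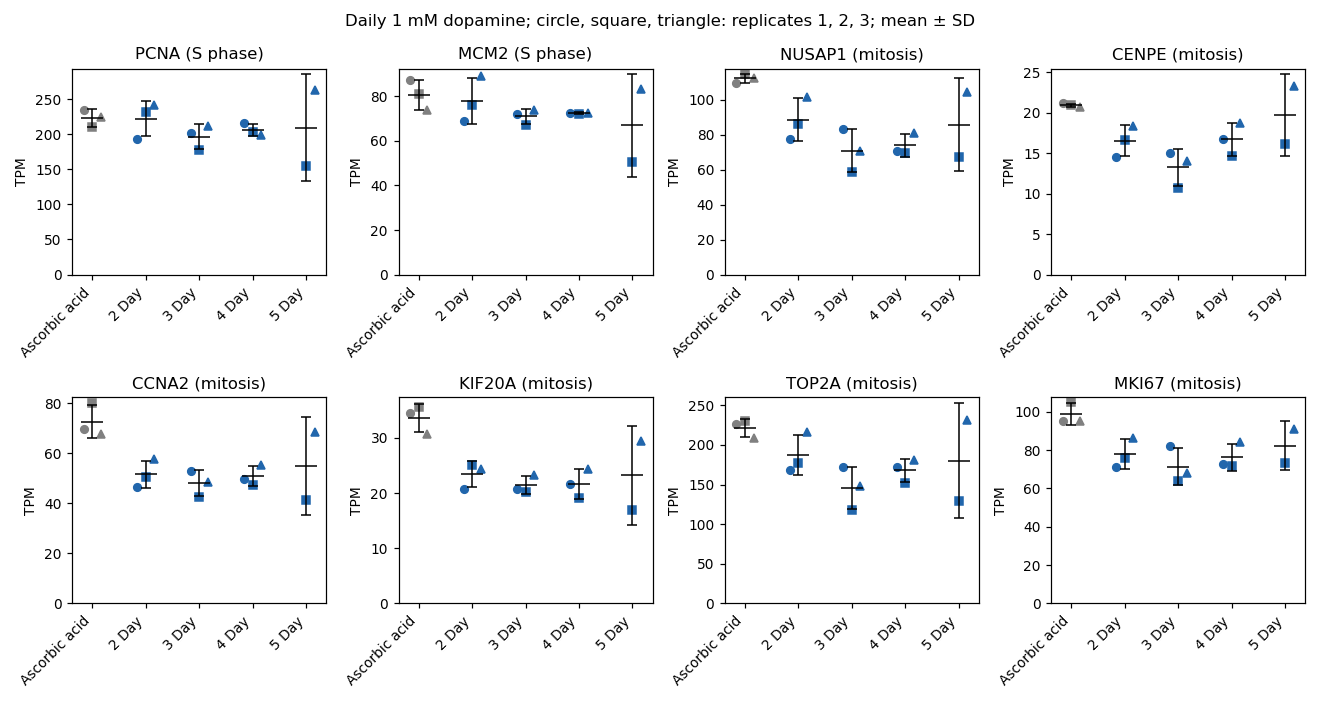
TPM of PCNA, MCM2, NUSAP1, CENPE, CCNA2, KIF20A, TOP2A and MKI67 in the time course, by days of daily 1 mM dopamine after ascorbic acid (AA), with replicates 1, 2 and 3 as circles, squares and triangles and bars for the group mean ± SD. NUSAP1 lies at 110 to 115 TPM under ascorbic acid and at 58.6 to 83.3 TPM at 3 Day, and the 2 libraries of 5 Day lie apart, at 67.1 and 105 TPM.

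The 2 libraries of 5 Day differed from each other, with mitosis sums of 1156 and 1950 TPM against 1856 to 2021 TPM under ascorbic acid, and S phase sums of 685 and 1191 TPM. The counts of the time course depended on single libraries. The 17 genes at 3 Day became 0 without replicate 2 of 3 Day, 6 without its replicate 3, 4 without replicate 1 and 5 without replicate 2 of ascorbic acid, and 26 without either library of 5 Day. The 7 genes at 4 Day became 1 without replicate 1 or 2 of 4 Day, 4 without its replicate 3, 2 or 3 without a library of ascorbic acid, 12 without replicate 1 of 3 Day, and 15 or 16 without a library of 5 Day. Markers of other cells moved on the same days. The mesenchymal and matrix markers summed to 243 to 325 TPM under ascorbic acid, 417 to 969 TPM at 3 Day, where 6 of 8 rose, beside 4.77% of all genes, and 471 to 494 TPM at 4 Day, where 2 rose, beside 2.58%. The glial list summed to 61.9 to 79.2, 100 to 123 and 100 to 112 TPM in the same groups, and neuron markers to 4321 to 4647, 3923 to 4830 and 4209 to 4722 TPM. Their part in the result was not tested. Among progenitor markers, SOX2 was lower and HES1 higher at 2, 3, 4 and 5 Day, and their 14 genes summed to 3072 to 3277 TPM under ascorbic acid and 3068 to 3673 TPM at 3 Day.

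The receptor agonists gave no member that passed. With SKF82958 and with quinpirole 0 of 43 passed in edgeR (0 at an unadjusted p under 0.05, 0 with DESeq2), beside 0.0124 and 0% of all genes, and 0 passed without replicate 1 of quinpirole, beside 0.624 and 0.184% of all genes. In the fit of all libraries 185 and 350 of all 16132 genes tested had an unadjusted p under 0.05. MKI67 was at 30.9, 26.2 and 39.3 TPM in water, at 42.0, 31.3 and 36.6 TPM with SKF82958 and, in replicates 2 and 3 of quinpirole, at 31.5 and 39.0 TPM, so the groups overlapped. Its log2 fold change was 0.11 with SKF82958 (SE 0.11) and 0.18 with quinpirole (SE 0.13) without replicate 1 of quinpirole. PCNA, at 129 to 177 TPM in water and 146 to 196 TPM with SKF82958, also overlapped. Their list medians were 0.04 for S phase and 0.08 for mitosis genes with SKF82958.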

How the data were processed

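RNA-seq of 53 libraries was analysed. Per the file headers and the study's methods, the authors trimmed the reads, mapped them to GRCh38 (Ensembl 102) with CLC Genomics Workbench 21.0.5 at default settings and deposited, per library and gene, counts of exon reads, counts of all gene reads (exons and introns) and TPM. The deposited TPM are exon reads per exon length, rescaled so that libraries are comparable. The strand used in counting was not given in the sources used here, and 2 sequencing providers were used without a key to libraries. The members and gene lists were chosen with earlier results of these data known.

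Exon read counts were tested with edgeR 4.0.16 (quasi-likelihood, TMM, genes kept by filterByExpr with a minimum count of 10 and a minimum total of 15) in R 4.3.3, with 1 fit per experiment. Genes with an adjusted p (Benjamini-Hochberg over all genes tested) under 0.05 passed, and log2 fold changes are given with standard errors (SE). Further fits took the 12 control libraries alone, and both dopamine doses with the difference of their changes as the contrast. Levels are TPM, with the SD over libraries. Other lists held 30 further S phase and 30 further mitosis genes, 8 G1 cyclins and CDKs, 10 inhibitors and pocket proteins, and markers of progenitors, neurons, striatal neurons, glia, mesenchymal and pluripotent cells. Chosen to be followed were MKI67, TOP2A, CDK1, CCNB1, MCM2, PCNA, RRM2, TYMS, CCND1, CCND2 and CDKN1A, but not all of them are given in each comparison. Up to 4 passed members per list with the smallest adjusted p were also named. Further genes were named after their values were seen. Alternatives were DESeq2 1.42.0, its size factors, total gene reads, no filter, only the groups compared, the replicate number as a block, the study's threshold, and leaving out each library. In simulated counts for 1 mM Acute 1 h (17503 genes), 56.7% of 104 genes changed by 1 and 79.2% of 96 changed by 2 on the log2 scale were found, with 5 false calls. The changed genes were drawn at random from all genes kept, and smaller changes were not simulated. These shares therefore do not say how many members with a change under 1 would be found. Depth, 5755919 exon reads or more apart from replicate 1 of quinpirole, limits precision by counting error only.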

Additional observations from a re-analysis of the deposited data

Results flagged for a closer look

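The change of 2 cell cycle genes outside the S phase and mitosis lists differed between the doses when the difference itself was tested in edgeR. They come from further lists of 30 S phase genes, 30 mitosis genes, 8 G1 cyclins and CDKs and 10 inhibitors and pocket proteins. Over all genes tested, 2.01% differed for Acute 1 h and 0.663% for Acute 24 h. The differences of CDKN2B are given only for the fit of all libraries. CDKN2B, the inhibitor p15 of CDK4, had a log2 fold change against PBS that was 2.30 higher at 1 mM than at 1 µM for Acute 1 h (SE 0.48, adjusted p = 0.0103), with 34.7 to 42.0 TPM at 1 mM Acute 1 h against 6.63 to 8.34 TPM in its PBS libraries, and 2.97 to 3.84 TPM at 1 µM Acute 1 h against 1.26 to 4.25 TPM. For Acute 24 h the difference for CDKN2B was 2.52 (SE 0.48, adjusted p = 0.0109), with a mean of 35.9 TPM (SD 7.35, n = 3) at 1 mM and 1.68 to 2.91 TPM at 1 µM. CDC45, of the replication helicase, differed by -1.90 for Acute 24 h (SE 0.43, adjusted p = 0.0307), with 6.30, 19.3 and 18.6 TPM at 1 mM against 16.4 to 17.7 TPM in PBS, and 28.6 to 34.9 TPM at 1 µM against 5.92 to 13.8 TPM in PBS, and the lowest of the 1 mM values belonged to replicate 1 of Acute 24 h. Without that library the difference was -1.50 (SE 0.30, adjusted p = 0.0140).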

How the results depend on the processing

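Of the 43 members, the number that passed moved by over 1.5 times as follows, and the cause was not tested except where fewer libraries entered a fit. With total gene reads it was 9 at 1 mM Acute 1 h (5 in the report), 3 at Acute 24 h (1), 23 for Chronic against Acute at 1 h (7) and 7 at 24 h (1), and at 1 µM 16 at Acute 1 h (10), 3 at Acute 24 h (7), 2 at Chronic 1 h (0), 13 for Chronic against Acute at 1 h (5) and 3 at 24 h (6), with 3 at 4 Day (7) and 9 for the dose difference at Acute 1 h (0). With total gene reads, 14076 of all 26006 genes tested had an unadjusted p under 0.05 at 1 mM Acute 1 h. For Chronic against Acute at 1 mM, 12744 did at 1 h and 12839 at 24 h. With exon reads these were 5509, 4718 and 4940 of 17804 genes. The shares of all genes called are not given for the alternatives, so a higher count here does not single out the members. With DESeq2's size factors it was 5 at 1 mM Chronic 1 h (3). With no filter it was 4 at 1 µM Acute 24 h, 2 at 2 Day (0), 29 at 3 Day (17), 24 at 4 Day and 4 at 5 Day (0). With only the groups compared it was 25, 0, 35 and 14 at 1 mM for Acute (1 h, 24 h) and Chronic (1 h, 24 h), 39 and 0 for Chronic against Acute at 1 h and 24 h, 0, 0 and 22 at 1 µM for Acute 1 h and for Chronic against Acute at 1 h and 24 h, and 2, 27 and 26 at 2, 3 and 4 Day. With DESeq2's test it was 2, 7 and 2 at 1 mM Acute 24 h, Chronic 1 h and Chronic 24 h, 3 for Chronic against Acute at 24 h, 11 and 2 at 1 µM Acute 24 h and Chronic 1 h, 11 and 12 for Chronic against Acute at 1 h and 24 h, and 1 and 14 at 2 and 4 Day. With the study's threshold (a log2 fold change of at least 1 in size and a group mean of at least 1 TPM) it was 0 at each dose for every comparison in which members had passed. The dose difference gave 5 at Acute 1 h and 8 at Chronic 1 h in the fit that left out replicate 1 of 1 mM Acute 24 h (tried once the data had been seen).

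With the replicate block the number was 2 at 1 mM Acute 24 h and 3 for 1 µM Chronic against Acute at 1 h. The libraries were not paired by replicate number. Correlations of same-numbered libraries had a mean of 0.002 in the 1 mM and 0.023 in the 1 µM experiment. At 1 µM they ran from -0.301 to 0.446, with 14 of 30 pairs over 0.1, against 25 of 60 pairs with different numbers. A mean near 0 cannot exclude that some same-numbered libraries deviated together, and replicate 2 had low S phase sums in several 1 µM groups. Leaving out each library in turn gave ranges of 1 to 24, 0 to 8, 2 to 34 and 0 to 32 for Acute (1 h, 24 h) and Chronic (1 h, 24 h) against PBS at 1 mM, 3 to 39 and 1 to 26 for Chronic against Acute, 4 to 11, 2 to 12, 0 to 1 and 0 to 0 for the same 4 conditions at 1 µM, 0 to 9 and 1 to 10 for Chronic against Acute, 0 to 2, 0 to 26, 1 to 16 and 0 to 10 at 2, 3, 4 and 5 Day, 42 to 43 for the control sets and 0 to 0 for both agonists. At 1 mM the highest of these came without replicate 1 of Acute 24 h, except at Acute 24 h, where 8 came without replicate 3. Besides the libraries named in the report, these moved a number by over 1.5 times. At 1 mM Acute 1 h it was 1 without replicate 1 or 2 of Acute 1 h, 2 without its replicate 3 or replicate 2 of PBS, and 3 without replicate 1 or 3 of PBS. At 1 mM Acute 24 h it was 7, 4 and 8 without replicate 1, 2 and 3 of that group, 2 without replicate 3 of Chronic 24 h and 0 without any 1 PBS library. For 1 mM Chronic against Acute it was 3 at 1 h without replicate 3 of Acute 1 h or replicate 1 or 2 of Chronic 1 h, and at 24 h 2 without replicate 3 of Acute 24 h and 3 without replicate 3 of Chronic 24 h. It was 5 at 1 mM Chronic 1 h without replicate 2 of Acute 24 h, and 0 at Chronic 24 h without its replicate 1 or replicate 1 or 2 of PBS. For 1 µM Chronic against Acute at 1 h it was 9 without replicate 2 of Acute 1 h, 3 without replicate 3 of Acute 24 h or replicate 1 or 2 of Chronic 24 h, and 0 and 1 without replicate 1 and 3 of Chronic 1 h. At 24 h it was 10 without replicate 2 of Acute 1 h, 2 without any 1 library of Acute 24 h or replicate 1 or 3 of Chronic 24 h, and 1 without replicate 2 of the latter. It was 1 at 1 µM Chronic 1 h without replicate 1 or 2 of Acute 1 h or replicate 2 of PBS, 2 at 2 Day without a library of 5 Day, and 10 at 5 Day without its replicate 3. Of the single genes named as passed, 0 reversed under any alternative, and 277 of 1026 fits with a library left out lost the call. Of 70 such calls, 26 were lost with total gene reads, 20 with only the groups compared, 11 with no filter, 7 with the replicate block, 1 with DESeq2's size factors and 0 with its test, and 46 of 46 were lost with the study's threshold.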
